A study of Homo sapiens with 6 samples.

Results

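The motile axoneme is the microtubule scaffold of beating cilia and sperm flagella, and the genes described here encode its parts, the factors that assemble its dynein motors in the cytoplasm, and the transcription factor FOXJ1. The 59 genes were taken by symbol from a table of 60624 Ensembl genes, and all 59 were found in it. RNA was sequenced from A549, a widely used human cell line that was derived from a lung adenocarcinoma, after transfection for 3 days with siCTR, a control small interfering RNA (siRNA), in 3 samples, or with siCEP20, an siRNA against the centriolar satellite gene CEP20, in 3 samples. Both groups are thus the same line with no other allele named, although a label field of the samples speaks of a plasmid transfection, and the labels do not say which CEP20 siRNA was used or whether the samples of a group came from separate cultures, so p-values measure only the spread between these samples. The question was which axonemal transcripts differed when CEP20 was lowered.

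In a motile axoneme, outer and inner dynein arms on the doublet microtubules slide neighbouring doublets against each other, and radial spokes, a central pair of singlet microtubules and the nexin-dynein regulatory complex turn sliding into bending. Dynein arms are folded and put together in the cytoplasm by a set of assembly factors before they enter the cilium. In the airway these genes are known as a shared programme of multiciliated cells, driven by FOXJ1 together with RFX transcription factors, and A549 cells are not multiciliated.

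Levels are given as TPM, a transcript abundance that is already divided by length and scaled to the same total in every library, so sequencing depth cannot be read from the values. Between 14429 and 14600 genes reached 1 TPM in siCTR libraries and between 14851 and 14987 in siCEP20 libraries. CEP20 itself was at 29.2, 30.5 and 35.1 TPM in siCTR libraries and at 16.2, 15.3 and 17.3 TPM in siCEP20 libraries, which left 51.4% of its control level (log2 fold change -0.92, standard error 0.0915, adjusted p = 0.000205). Fold changes throughout are siCEP20 against siCTR on the log2(TPM + 1) scale, which understates the change of low genes. Adjusted p-values come from limma with Benjamini-Hochberg adjustment over the 14778 genes that averaged at least 1 TPM across the 6 libraries. Calling a gene required an adjusted p under 0.05 together with a fold change above 1.5 or below 0.67. Over all tested genes the log2 fold changes had a median of 0.13, which median-of-ratios scaling brought to 9.4e-05. The calls over all tested genes were 1659 higher and 682 lower without scaling, and 894 higher and 1103 lower with it.

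The epithelial identity of the line was visible in its keratins. The 6 epithelial markers, keratins KRT7, KRT8, KRT18 and KRT19 with EPCAM and CDH1, summed to 7029 to 7333 TPM in siCTR and 8474 to 8709 TPM in siCEP20 libraries. Nearly all of it was KRT7, KRT8 and KRT18. EPCAM was low, at 0.834 to 1.24 and 3.01 to 3.85 TPM, and CDH1 was at 11.1 to 12.4 and 21.9 to 24.1 TPM. Of 8 alveolar type II markers, 3 had a mean of at least 1 TPM, and the summed level was 21.5 to 23.7 TPM in siCTR against 22.3 to 23.5 TPM in siCEP20 libraries. Most of it was ABCA3, at 16.7 to 17.9 and 20.4 to 20.7 TPM, while LAMP3 was at 2.36 to 3.78 and 0.948 to 1.44 TPM and NAPSA at 1.59 to 2.20 and 0.611 to 1.59 TPM. SFTPA1 and SFTPA2 were at 0 in all libraries and NKX2-1 reached at most 0.0447 TPM. Of 13 multiciliated cell markers, C20orf85, GMNC, SNTN and TEKT1 were at 0 in all libraries, 6 had a mean of at least 1 TPM, and the summed level was 26.05 to 29.98 TPM in siCTR against 25.0 to 27.6 TPM in siCEP20 libraries. The largest part was CCNO, at 12.8 to 14.7 and 11.3 to 12.0 TPM, so the sum does not show the single markers. PIFO was at 0.93 to 1.07 and 1.74 to 2.26 TPM, and TPPP3 at 2.28 to 3.33 and 3.37 to 4.12 TPM. CAPS was at 2.24 to 3.26 and 1.75 to 2.46 TPM. Overlapping groups were seen in MCIDAS (1.895 to 2.92 and 1.498 to 3.11 TPM) and CFAP126 (4.22 to 4.39 and 3.75 to 5.10 TPM). The 5 fibroblast markers summed to 5.52 to 5.97 TPM in siCTR and 17.7 to 20.1 TPM in siCEP20 libraries, nearly all of it COL1A1, with COL1A2 and DCN at 0. The 4 immune markers summed to 16.2 to 23.96 TPM in siCTR and 29.65 to 47.2 TPM in siCEP20 libraries, nearly all of it CD68, with CD3E at 0 and PTPRC at most at 0.0183 TPM. The 3 endothelial markers summed to at most 0.109 TPM. The part of COL1A1- or CD68-expressing cells in the results was not tested, and in bulk RNA a change in the number of cells of a type and a change in RNA per cell cannot be told apart.

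Axonemal transcripts were mostly low in A549 cells, and those that moved went up in the siCEP20 samples. Of the 59 members, 34 had a mean of at least 1 TPM and were tested, while 25 were below it. Among the tested members 15 were called higher (44.1%), where 11.2% of all tested genes were called higher, and 0 were called lower, where 4.61% of all tested genes were. Without the fold change threshold 21 tested members were higher (61.8%, against 30.2% of all tested genes) and 0 were lower (against 13.2%). The median log2 fold change of the tested members was 0.48, which is 0.35 above the median of all tested genes, and single values ran from -0.27 for CFAP410 to 1.67 for RSPH1. In 24 of the 34 (70.6%) every siCEP20 value lay above every siCTR value, which held for 38.4% of all tested genes, and in the other 10 the groups overlapped. Tested members RSPH1, CFAP53 and ZMYND10 had a siCTR mean under 1 TPM and so reached the filter only through the siCEP20 samples, which partly fixed their direction. Among the 31 tested members with both group means of at least 1 TPM, a comparison added after seeing the data, 13 were called higher (41.9%, against 10.7% of all such genes), 0 were called lower, and 19 were higher at the adjusted p (61.3%, against 30.4%), with a median log2 fold change of 0.48.

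**Figure D1:**
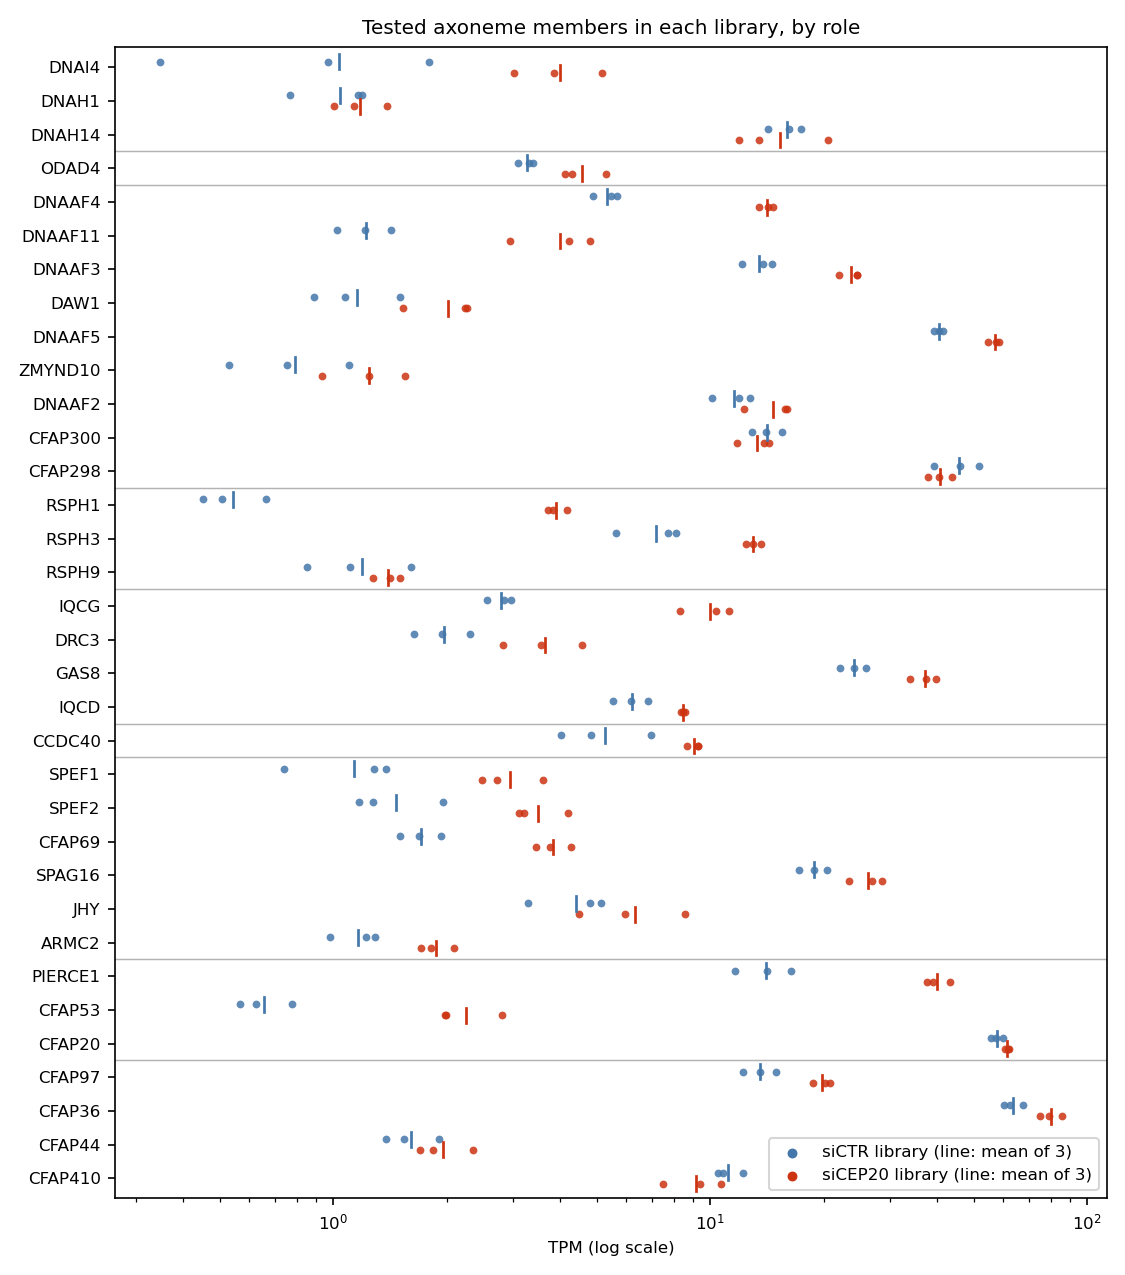
TPM (log axis) of each of the 34 tested members in the 3 siCTR (blue) and 3 siCEP20 (red) libraries, with a short line at each group's mean and members grouped by role. RSPH1 shows the widest gap, from 0.452 to 0.665 TPM in siCTR against 3.71 to 4.16 TPM in siCEP20 libraries, while DNAH14 and CFAP300 overlap.

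The rise was seen in low and in better expressed members. The 20 tested members with a mean under 10 TPM had a median log2 fold change of 0.67, and 11 of them were called higher, where 12.6% of all tested genes in that range were. Of the 17 among them with both group means of at least 1 TPM, 9 were called higher. The share of all genes in that narrower class was not computed. Among all genes with both group means of at least 1 TPM, at any level, it was 10.7%. The 14 members with a mean of at least 10 TPM had a median of 0.39, and DNAAF3, GAS8, PIERCE1 and RSPH3 were called higher among them, where 10.3% of all tested genes in that range were. In that range 3 members were called with median-of-ratios scaling (5.11% of all genes) and 3 with quantile normalization (6.2%), both without GAS8. After the length and GC correction 2 were called (5.07% of all genes), without GAS8 and RSPH3. The median difference of the 34 tested members from the siCTR mean was 0.52, 0.47 and 0.58 in siCEP20 libraries. The siCTR libraries were at -0.03, 0.00 and 0.09, near 0 by construction because they were compared with their own mean. These medians include RSPH1, CFAP53 and ZMYND10, which reached the filter only through the siCEP20 samples. The same value over all tested genes was not computed for each library, and their median log2 fold change was 0.13. With median-of-ratios scaling 12 members were called higher, where 6.05% of all tested genes were. The summed level of all 59 members was 400.5 ± 12.96 TPM in siCTR and 553.1 ± 21.5 TPM in siCEP20 samples (SD, n = 3 each). Transcript length was much the same in the tested members (median 2761 bases) and in all tested genes (median 2818 bases).

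Of the members, 12 stood in the study's own heatmap of microtubule bundle genes, which was made from these samples, so they are not independent evidence of direction. They were CCDC40, ARMC2, DNAI3, RSPH1, CFAP69, IQCG, DNAAF11, DNAI4, SPEF1, SPEF2, JHY and DAW1, and 8 of the 11 tested were called higher. The 47 other members, 23 of them tested, had 7 called higher (30.4%, against 11.2% of all tested genes). These 7 were DNAAF3, DNAAF4, CFAP53, DRC3, GAS8, PIERCE1 and RSPH3. CFAP53 reached the filter only through the siCEP20 samples. DRC3 and GAS8 lost the call with median-of-ratios scaling, under which 6.05% of all tested genes were called higher. RSPH3 lost it after the length and GC correction. The median log2 fold change of the 23 tested members was 0.38 against 0.87 for those in the heatmap. These 23 are not independent evidence of direction either, since all members were chosen with earlier results of these data known. The paper reported cilium organization and microtubule bundle formation among the terms enriched in genes higher in the siCEP20 samples.

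**Figure D2:**
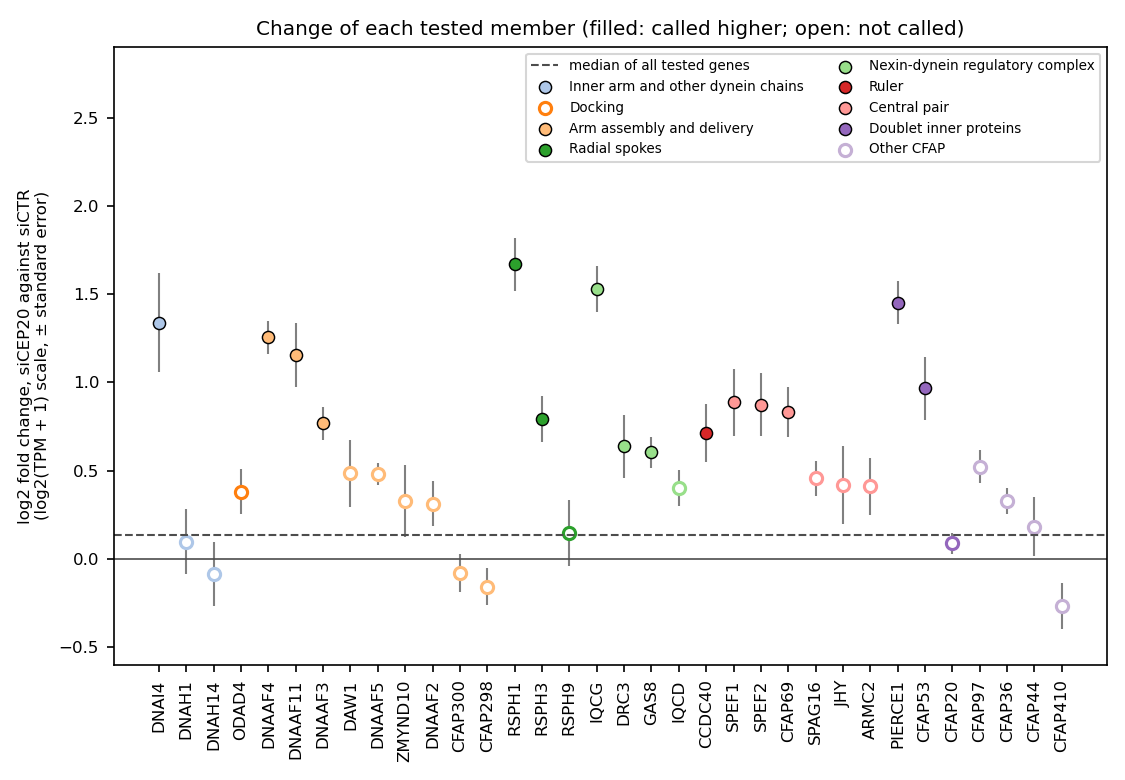
Log2 fold change (siCEP20 against siCTR, log2(TPM + 1) scale) of the 34 tested members with its standard error, by role. Filled points mark the 15 called higher, open points those not called, and the dashed line the median of all tested genes at 0.13.

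Because many axonemal genes carry binding motifs of RFX factors close to their start, the letters upstream of the members are shown beside their values. RefSeq windows (GRCh38.p14) from 250 bases before to 50 bases after a gene's start were found for 43 of the 59 members and for 27305 genes in all. The X-box, the palindromic RFX motif, was searched on both strands as GTNNCC and GNAAC with any 3 bases between them and lay in the windows of 7 of 43 members (16.3%) and in 2.76% of all windows. Its half-site GTTGCCAT, which can overlap an X-box, lay in 5 of 43 (11.6%) against 1.63% of all windows, and the forkhead motif GTAAACA in 2 of 43 (4.65%) against 4.19%. These motifs were chosen after the expression values were seen. Of the 8 called members with a window, 0 held the X-box, 0 the forkhead motif, and 1, CFAP53, held the half-site. The other called members, RSPH1, IQCG, DNAI4, DNAAF3, DNAAF4, DNAAF11 and GAS8, had no window and were not searched. Stretches around some of the matches are printed on the strand of the gene, with the match in capitals. The first 3 hold an X-box that matches on both strands, in genes whose levels behaved differently, as described with their roles. The last 3 hold a half-site, in CFAP53, which rose, and in CFAP36 and CFAP97, which passed the adjusted p without the fold change.
CFAP45 (chr1:159900166-159900192, minus strand): ggctagtgGTTGCCAAGGTAACgcgtc
DNAH1 (chr3:52316206-52316235, plus strand): aggctgatGTTGCCATGGCAACccggatag
SPAG16 (chr2:213284272-213284301, plus strand): gcaacatcGTTGCCACGGTAACtgggaggc
CFAP53 (chr18:50266496-50266512, minus strand): ggcgcaccATGGCAACc
CFAP36 (chr2:55519623-55519646, plus strand): ctacgtgtGTTGCCATagcgacca
CFAP97 (chr4:185204200-185204223, minus strand): agggcgccATGGCAACcacgcggg
The other members with an X-box were DNAH11, RSPH9, SPAG17 and SPAG6, and CFAP74 and DNAH1 also held the half-site. A match is a string of letters and not a bound site. No window was given for RSPH1, IQCG, IQCD, DNAI4, DNAAF1, DNAAF3, DNAAF4, DNAAF11, CFAP54, CFAP300, DRC7, GAS8, HYDIN, DAW1, ODAD4 and FOXJ1.

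Radial spokes, which carry signals from the central pair to the dynein arms, held the member with the highest log2 fold change among those tested. RSPH1 (ENSG00000160188, chr21:42472486-42496246, minus strand), a protein of the spoke head, was at 0.508, 0.452 and 0.665 TPM in siCTR and at 4.16, 3.71 and 3.83 TPM in siCEP20 libraries. Every siCEP20 library was above every siCTR library, with a log2 fold change of 1.67 (standard error 0.15, limma adjusted p = 0.000132), although RSPH1 entered the test only through its siCEP20 values. RSPH3 (ENSG00000130363, chr6:158972871-159000202, minus strand), a spoke protein that binds the kinase PKA, was at 5.64, 8.14 and 7.72 TPM in siCTR and at 13.0, 13.6 and 12.4 TPM in siCEP20 libraries. The groups did not overlap, and RSPH3 rose (log2 fold change 0.79, standard error 0.131, adjusted p = 0.00204), a call that the length and GC correction ended (0.55). RSPH9, another spoke head protein, was at 1.11, 1.61 and 0.854 TPM in siCTR against 1.42, 1.27 and 1.504 TPM in siCEP20 libraries, with overlapping groups (log2 fold change 0.14, 95% interval -0.28 to 0.57). RSPH4A, also of the spoke head, was below the filter at 0.318, 0.177 and 0 TPM in siCTR and at 0.513, 0.309 and 0.756 TPM in siCEP20 libraries, which overlap.

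The nexin-dynein regulatory complex links neighbouring doublets. All 4 of its tested members were higher at the adjusted p (against 30.2% of all tested genes), and 3 were called higher (against 11.2%). IQCG (ENSG00000114473, chr3:197889077-197960142, minus strand), the DRC9 subunit, was at 2.84, 2.57 and 2.96 TPM in siCTR and at 8.34, 11.2 and 10.4 TPM in siCEP20 libraries. Its lowest siCEP20 value was well above its highest siCTR value (log2 fold change 1.53, standard error 0.13, adjusted p = 0.000104). GAS8 (ENSG00000141013, chr16:90019629-90044975, plus strand), the DRC4 subunit, was the most abundant member of the complex, at 25.97, 24.1 and 22.1 TPM in siCTR and at 33.97, 39.7 and 37.5 TPM in siCEP20 libraries. The groups were separate (log2 fold change 0.60, standard error 0.0886, adjusted p = 0.00114), close to the fold change threshold, and GAS8 fell below it under all 3 rescalings, that is median-of-ratios scaling, quantile normalization and the length and GC correction (0.46 to 0.47), without siCEP20 replicate 2 (0.55) or without siCTR replicate 3 (0.55). DRC3 (ENSG00000171962, chr17:17972813-18016889, plus strand) was at 1.95, 1.64 and 2.31 TPM in siCTR and at 4.58, 2.82 and 3.56 TPM in siCEP20 libraries. The groups were separate but scattered (log2 fold change 0.64, standard error 0.178, adjusted p = 0.0206), and the call was lost without siCEP20 replicate 1 (adjusted p = 0.0714), siCTR replicate 1 (adjusted p = 0.0529) or siCTR replicate 2 (adjusted p = 0.0638), as well as without a filter and under all 3 rescalings. IQCD, the DRC10 subunit, was at 6.17, 5.54 and 6.86 TPM in siCTR and at 8.46, 8.60 and 8.38 TPM in siCEP20 libraries, higher by a log2 fold change of 0.40 (adjusted p = 0.0147) and not called, and it missed the adjusted p with median-of-ratios scaling (0.0553) and quantile normalization (0.0953). DRC1 was at 0.0935, 0 and 0 TPM in siCTR and at 0.643, 0.145 and 0.218 TPM in siCEP20 libraries, which were separate, and DRC7 stayed at or below 0.361 TPM in all 6 libraries.

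Doublet inner proteins bind inside the lumen of the doublet microtubule and stiffen it. PIERCE1 (ENSG00000160345, chr9:135495181-135501734, minus strand) was at 14.2, 16.4 and 11.7 TPM in siCTR and at 38.9, 43.3 and 37.6 TPM in siCEP20 libraries. Its groups lay far apart (log2 fold change 1.45, standard error 0.12, adjusted p = 9.32e-05). CFAP53 (ENSG00000172361, chr18:50227193-50266495, minus strand), the member whose half-site is printed above, was at 0.566, 0.625 and 0.776 TPM in siCTR and at 1.98, 1.99 and 2.80 TPM in siCEP20 libraries. CFAP53 rose (log2 fold change 0.97, standard error 0.178, adjusted p = 0.00331). CFAP20, which sits at the inner junction of the doublet and also serves primary cilia, was the most abundant of these proteins and nearly level, at 55.75, 60.01 and 57.4 TPM in siCTR and at 62.2, 61.6 and 60.5 TPM in siCEP20 libraries. The groups were just separate, but the difference was small (log2 fold change 0.09, standard error 0.0587, adjusted p = 0.256, 95% interval -0.05 to 0.22), and its sign turned to -0.06 with median-of-ratios scaling. CFAP45, whose X-box is printed above, was below the filter at 0.265, 0.367 and 0.158 TPM in siCTR and at 0.977, 1.10 and 1.09 TPM in siCEP20 libraries. CFAP52 was at 0.205, 0.189 and 0.335 TPM in siCTR and at 0.525, 0.366 and 0.647 TPM in siCEP20 libraries. In both CFAP45 and CFAP52 the groups were separate, with p = 0.1 by the two-sided exact permutation test, which is as low as 3 against 3 samples can reach.

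The central pair and its projections control the waveform, and 4 of 6 tested members were higher at the adjusted p (against 30.2% of all tested genes). SPEF1 (ENSG00000101222, chr20:3777504-3781448, minus strand), a protein that bundles microtubules, was at 1.38, 1.28 and 0.742 TPM in siCTR and at 2.48, 2.73 and 3.61 TPM in siCEP20 libraries (log2 fold change 0.89, standard error 0.19, adjusted p = 0.00675). SPEF2 (ENSG00000152582, chr5:35617844-35814611, plus strand), a projection protein, was at 1.96, 1.17 and 1.28 TPM in siCTR and at 3.22, 3.11 and 4.19 TPM in siCEP20 libraries (log2 fold change 0.87, standard error 0.178, adjusted p = 0.00538). CFAP69 (ENSG00000105792, chr7:90245174-90311063, plus strand) was at 1.69, 1.503 and 1.94 TPM in siCTR and at 3.46, 4.28 and 3.76 TPM in siCEP20 libraries (log2 fold change 0.83, standard error 0.142, adjusted p = 0.00228). All 3 were called higher with separate groups and stood at similar levels. SPAG16, the most abundant central pair member and the holder of an X-box printed above, was at 17.2, 18.9 and 20.4 TPM in siCTR and at 26.8, 28.6 and 23.3 TPM in siCEP20 libraries. It passed the adjusted p with separate groups (log2 fold change 0.46, standard error 0.1, adjusted p = 0.00741) and stayed under the fold change threshold. ARMC2, needed for the central pair of sperm flagella, was at 0.979, 1.22 and 1.29 TPM in siCTR and at 2.098, 1.82 and 1.71 TPM in siCEP20 libraries (log2 fold change 0.41, adjusted p = 0.0697). JHY was at 4.81, 3.29 and 5.14 TPM in siCTR and at 5.94, 4.49 and 8.58 TPM in siCEP20 libraries (log2 fold change 0.42, adjusted p = 0.16). ARMC2 did not pass although its groups were separate, and the groups of JHY overlapped. Of the 5 central pair members below the filter, SPAG17 was at 0 in every siCTR library and at 0.187, 0.333 and 0.313 TPM in siCEP20 libraries. HYDIN, a large projection protein, was at 0.0186, 0.226 and 0.0257 TPM in siCTR and at 0.658, 0.258 and 0.297 TPM in siCEP20 libraries, and CFAP54 ran from 0.247 to 0.38 TPM in siCTR and from 0.405 to 0.571 TPM in siCEP20 libraries. These 3 had separate groups, while CFAP74 and SPAG6 stayed at or below 0.0472 TPM. Both SPAG17 and SPAG6 hold an X-box in the window.

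Dynein arms are assembled by dedicated cytoplasmic factors working with chaperones. Of 9 tested factors 3 were called higher (against 11.2% of all tested genes). DNAAF4 (ENSG00000256061, chr15:55410525-55508234, minus strand), also known as DYX1C1, was at 5.46, 4.90 and 5.66 TPM in siCTR and at 13.5, 14.7 and 14.3 TPM in siCEP20 libraries. It had the smallest adjusted p of the members (log2 fold change 1.26, standard error 0.0936, adjusted p = 6.78e-05), and replicates of each group lay close together. DNAAF11 (ENSG00000129295, chr8:132570416-132675592, minus strand), also known as LRRC6, was at 1.02, 1.43 and 1.22 TPM in siCTR and at 4.21, 4.81 and 2.96 TPM in siCEP20 libraries (log2 fold change 1.15, standard error 0.182, adjusted p = 0.00158). DNAAF3 (ENSG00000167646, chr19:55158661-55166722, minus strand) was at 12.2, 13.8 and 14.6 TPM in siCTR and at 21.98, 24.5 and 24.5 TPM in siCEP20 libraries (log2 fold change 0.77, standard error 0.0921, adjusted p = 0.000466). DNAAF5, a HEAT repeat protein with the highest mean over all 6 libraries though below CFAP298 in siCTR, was at 39.4, 40.5 and 41.5 TPM in siCTR and at 57.5, 58.4 and 54.8 TPM in siCEP20 libraries. Its groups were separate and it passed the adjusted p (log2 fold change 0.48, standard error 0.0612, adjusted p = 0.000598), under the fold change threshold. The other tested factors did not pass, although DAW1 did with untrended eBayes (0.0382), DNAAF2 without siCEP20 replicate 2 (0.0306) and CFAP298, as lower, after the length and GC correction (0.0421). DAW1, which helps deliver outer arms, was at 1.07, 0.887 and 1.502 TPM in siCTR and at 2.27, 1.53 and 2.24 TPM in siCEP20 libraries (log2 fold change 0.48, adjusted p = 0.0698). DNAAF2 ran from 10.1 to 12.8 TPM in siCTR and from 12.3 to 15.97 TPM in siCEP20 libraries (log2 fold change 0.31, adjusted p = 0.08). ZMYND10, a partner of DNAAF11, ran from 0.529 to 1.10 TPM in siCTR and from 0.937 to 1.56 TPM in siCEP20 libraries (log2 fold change 0.33, adjusted p = 0.233). CFAP298 and CFAP300 were the factors with a negative value, since CFAP298 ran from 39.2 to 51.7 TPM in siCTR and from 37.96 to 43.7 TPM in siCEP20 libraries (log2 fold change -0.16, 95% interval -0.40 to 0.09). CFAP300 ran from 12.9 to 15.6 TPM in siCTR and from 11.8 to 14.4 TPM in siCEP20 libraries (log2 fold change -0.08, 95% interval -0.32 to 0.16). Groups of DAW1 were separate, while those of DNAAF2, ZMYND10, CFAP298 and CFAP300 overlapped. DNAAF1, below the filter, was at 0.505, 0.181 and 0.263 TPM in siCTR and at 0.548, 0.742 and 0.477 TPM in siCEP20 libraries.

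Of the 10 dynein chains, which these factors serve, 7 were below the filter. Only 1 of the 3 tested was called higher (against 11.2% of all tested genes). DNAI4 (ENSG00000152763, chr1:66812885-66924856, minus strand), an intermediate chain of an inner arm, was at 0.348, 1.80 and 0.969 TPM in siCTR and at 3.85, 5.16 and 3.02 TPM in siCEP20 libraries. The siCTR values were scattered but all were below the siCEP20 values (log2 fold change 1.34, standard error 0.28, adjusted p = 0.00601). DNAI3, the other intermediate chain of that arm, was below the filter at 0.0511, 0.414 and 0.402 TPM in siCTR and at 1.35, 1.44 and 1.32 TPM in siCEP20 libraries, which were separate. The heavy chain DNAH14 was the most abundant chain, at 16.2, 17.4 and 14.2 TPM in siCTR and at 13.5, 20.55 and 11.9 TPM in siCEP20 libraries. The groups of DNAH14 overlapped (log2 fold change -0.09, standard error 0.181, adjusted p = 0.726, 95% interval -0.50 to 0.33), and the sign turned without siCEP20 replicate 3 (0.07). The inner arm heavy chain DNAH1, whose promoter holds the X-box printed above, was at 0.769, 1.19 and 1.16 TPM in siCTR and at 1.14, 1.39 and 1.00 TPM in siCEP20 libraries, overlapping (log2 fold change 0.10, 95% interval -0.33 to 0.52). DNAH7, another inner arm heavy chain, ran from 0.193 to 0.318 TPM in siCTR and from 0.64 to 1.04 TPM in siCEP20 libraries, and the light chain DYNLRB2 reached 0.205 TPM in a single siCEP20 library. DNAH7 had separate groups (two-sided exact permutation test, p = 0.1). None of the 4 outer arm chains reached the filter. DNAH5, an outer arm heavy chain, was at 0.516, 0.678 and 0.712 TPM in siCTR and at 1.16, 1.00 and 0.964 TPM in siCEP20 libraries, and its groups were separate. DNAH11, the other outer arm heavy chain, was at 0.653, 0.271 and 0.394 TPM in siCTR and at 1.41, 0.59 and 0.636 TPM in siCEP20 libraries, which overlap. DNAI1, an outer arm intermediate chain, ran from 0.0343 to 0.535 TPM in siCTR and from 0.109 to 0.544 TPM in siCEP20 libraries, and DNAI2, its partner, reached at most 0.0334 TPM.

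The docking complex anchors outer arms to the doublet. ODAD4 was at 3.39, 3.32 and 3.09 TPM in siCTR and at 4.30, 4.12 and 5.29 TPM in siCEP20 libraries, with separate groups (log2 fold change 0.38, standard error 0.128, adjusted p = 0.0423). It lost the adjusted p threshold with any 1 library left out, with values up to 0.133 (without siCEP20 replicate 3). ODAD4 also missed that threshold without a filter (0.101) and under all 3 rescalings, with values up to 0.22 (quantile normalization). ODAD1 was at 0.34, 0.419 and 0.518 TPM in siCTR and at 0.773, 0.526 and 0.587 TPM in siCEP20 libraries. ODAD3 was at 0.589, 0.771 and 0.907 TPM in siCTR and at 1.09, 1.10 and 0.823 TPM in siCEP20 libraries. ODAD1 was separate and ODAD3 overlapped, while ODAD2 was at most at 0.063 TPM. CCDC40 (ENSG00000141519, chr17:80036632-80100613, plus strand), which with CCDC39 forms the molecular ruler that sets the axonemal repeat, was at 4.02, 4.84 and 6.96 TPM in siCTR and at 9.28, 9.27 and 8.68 TPM in siCEP20 libraries. It was called higher (log2 fold change 0.71, standard error 0.165, adjusted p = 0.00947), but it missed the adjusted p without a filter (0.0509) and the fold change threshold without siCTR replicate 1 (0.56) and under all 3 rescalings (0.52 to 0.58). CCDC39 was at 0.276 TPM in siCEP20 replicate 1 and at 0 in the other 5 libraries.

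Of 4 tested cilia and flagella associated proteins outside these complexes, 0 were called and 2 were higher at the adjusted p. Of all tested genes, 11.2% were called higher, 4.61% were called lower and 30.2% were higher at the adjusted p. CFAP36, the most abundant member of all 59, was at 60.2, 67.6 and 62.5 TPM in siCTR and at 75.1, 85.8 and 79.1 TPM in siCEP20 libraries, with separate groups (log2 fold change 0.33, standard error 0.0733, adjusted p = 0.00784). CFAP97 was at 13.6, 12.2 and 14.95 TPM in siCTR and at 20.8, 20.1 and 18.7 TPM in siCEP20 libraries (log2 fold change 0.52, adjusted p = 0.00297). Both hold the half-site printed above, and neither reached the fold change threshold. CFAP410, known from centrosomes and primary cilia as well, was at 10.8, 10.5 and 12.2 TPM in siCTR and at 9.43, 10.7 and 7.497 TPM in siCEP20 libraries (log2 fold change -0.27, adjusted p = 0.134). CFAP44 ran from 1.38 to 1.90 TPM in siCTR and from 1.70 to 2.34 TPM in siCEP20 libraries (log2 fold change 0.18, 95% interval -0.20 to 0.56). Groups of CFAP410 and CFAP44 overlapped. CFAP43, the partner of CFAP44, ran from 0.0417 to 0.169 TPM in siCTR and from 0.316 to 0.456 TPM in siCEP20 libraries, which were separate. CFAP70, an outer arm associated protein, ran from 0.35 to 0.562 TPM and from 0.365 to 0.625 TPM, which overlap. FOXJ1, the transcription factor of motile ciliogenesis, was at 0.0355 TPM in siCTR replicate 2 and at 0 in the other 5 libraries, siCEP20 libraries included.

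**Figure D3:**
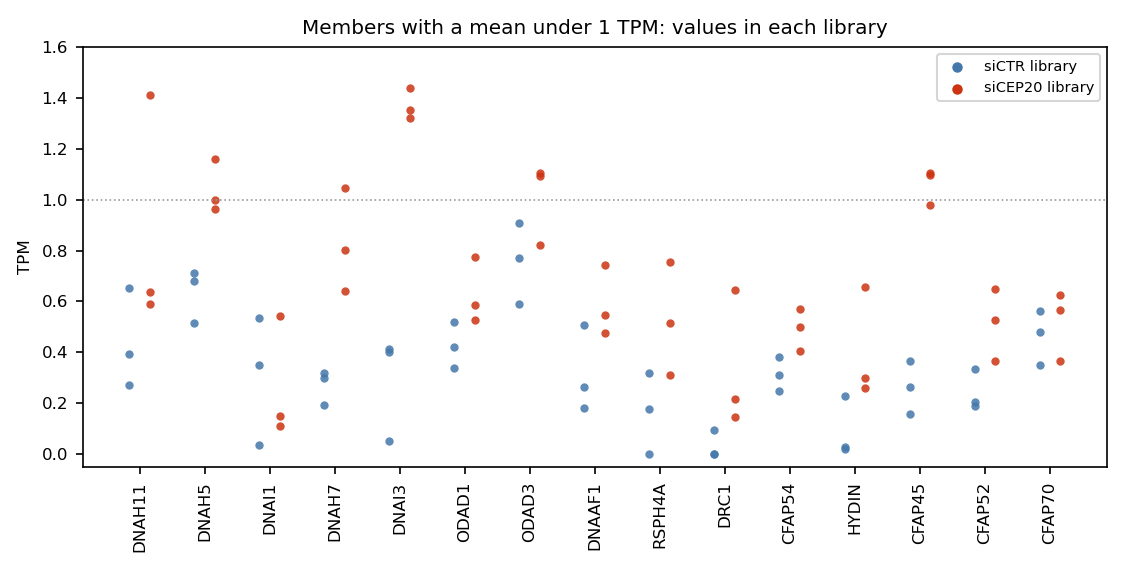
TPM of the 15 members with a mean under 1 TPM that reached 0.5 TPM in any library, in the 3 siCTR (blue) and 3 siCEP20 (red) libraries. DNAI3 and CFAP45 show the clearest gaps, with siCEP20 values of 1.32 to 1.44 TPM and 0.977 to 1.10 TPM above siCTR values of at most 0.414 and 0.367 TPM.

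Across the 25 members below the filter, 11 had every siCEP20 value above every siCTR value and 0 the reverse (two-sided exact permutation test, p = 0.1 for each of the 11, the smallest possible), and 10 never reached 0.5 TPM. Of all 14196 genes that were above 0 in some library and below the filter, 6.79% were separate upward and 3.19% downward, a background that is not matched to the members on level. In 11 of all 59 members at least 1 library was at 0. Such values rest on few reads, and the depth that would bound them is unknown.

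Several members share their locus with another expressed gene, which matters because it is not stated whether strand was used when transcripts were quantified, and without it reads of overlapping genes cannot be told apart. Of the 59 members, 22 overlap a gene that averaged at least 1 TPM, and 6 of the 15 called members were among them, all with the partner on the opposite strand. IQCG overlaps RPL35A, a ribosomal protein gene that fell from 885 ± 71.5 to 493 ± 9.81 TPM (log2 fold change -0.84, adjusted p = 6.82e-05) while IQCG rose. RSPH1 overlaps SLC37A1 (3.801 ± 0.242 and 3.59 ± 0.171 TPM, log2 fold change -0.07), and DRC3 overlaps ATPAF2 (37.5 ± 1.98 and 38.2 ± 3.48 TPM, log2 fold change 0.03). These 3 members moved apart from their partners. PIERCE1 overlaps MRPS2, which rose from 127 ± 2.30 to 199 ± 14.6 TPM (log2 fold change 0.64, adjusted p = 0.000215). DNAAF4 overlaps PIERCE2, another doublet inner protein, which rose from 6.53 ± 1.36 to 11.2 ± 3.00 TPM (log2 fold change 0.68, adjusted p = 0.0231). GAS8 overlaps DBNDD1 (53.2 ± 3.20 and 72.3 ± 5.26 TPM, log2 fold change 0.43) and the pseudogene URAHP (2.40 ± 0.508 and 4.49 ± 0.47 TPM, log2 fold change 0.70). The changes of these partners went the same way as those of the members, and how reads were shared was not tested. The 21 tested members without such a partner had a median log2 fold change of 0.46. Among them 9 were called higher (against 11.2% of all tested genes) and 12 were higher at the adjusted p (against 30.2%). CFAP298 also overlaps the readthrough gene CFAP298-TCP10L on its own strand (1.99 ± 2.25 and 3.48 ± 0.735 TPM), so its level is uncertain.

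**Figure D4:**
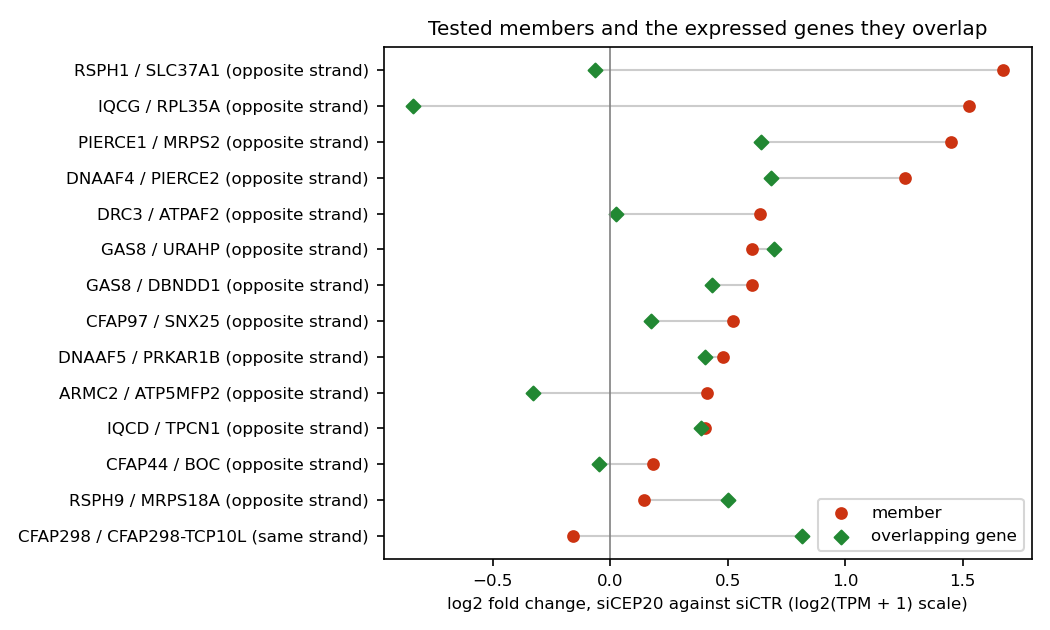
Log2 fold change (siCEP20 against siCTR, log2(TPM + 1) scale) of each tested member (circle) and of the expressed gene it overlaps (diamond), joined by a line. IQCG at 1.53 and RPL35A at -0.84 lie farthest apart, while IQCD at 0.40 and TPCN1 at 0.39 lie together.

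Among 102 other axoneme and motility genes, 48 were tested, and 12 of them were called higher (25.0%, against 11.2% of all tested genes) and 0 lower (against 4.61%). At the adjusted p 23 were higher (47.9%, against 30.2%) and 3 lower (6.25%, against 13.2%), with a median log2 fold change of 0.36. The list was chosen with earlier results of these data known, so it is not independent evidence of direction. CCDC113, a protein of ciliary bases and axonemes, was at 4.03, 4.18 and 3.62 TPM in siCTR and at 8.53, 9.01 and 9.38 TPM in siCEP20 libraries (log2 fold change 1.01, standard error 0.103, adjusted p = 0.000222). AK8, an axonemal adenylate kinase, was at 1.61, 0.932 and 1.14 TPM in siCTR and at 4.03, 4.59 and 4.76 TPM in siCEP20 libraries (log2 fold change 1.305, standard error 0.16, adjusted p = 0.000514). DYNLL1, a light chain that axonemal and cytoplasmic dyneins share, went the other way, at 593, 594 and 569.8 TPM in siCTR and at 396, 439 and 419 TPM in siCEP20 libraries (log2 fold change -0.49, standard error 0.0533, adjusted p = 0.000305). Each of these 3 genes had separate groups.

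Of 23 regulators of ciliogenesis other than FOXJ1, 16 were tested, 4 were called higher (SOX2, FOXA1, NOTCH1 and RFX3, 25.0% against 11.2% of all tested genes) and 0 lower (against 4.61%). At the adjusted p 10 were higher (62.5%, against 30.2%) and 1, CCNO, was lower (6.25%, against 13.2%), with a median log2 fold change of 0.41. The regulators, too, were listed with earlier results of these data known. TFDP1, a partner of E2F factors, was at 46.2, 48.1 and 52.4 TPM in siCTR and at 72.2, 69.4 and 68.8 TPM in siCEP20 libraries (log2 fold change 0.51, standard error 0.0671, adjusted p = 0.000685). SOX2, a factor of airway progenitors, was at 1.65, 1.41 and 1.27 TPM in siCTR and at 3.65, 4.15 and 4.47 TPM in siCEP20 libraries (log2 fold change 1.06, standard error 0.142, adjusted p = 0.000771). FOXA1, a factor of endoderm, was at 5.82, 6.46 and 6.005 TPM in siCTR and at 9.53, 11.4 and 10.3 TPM in siCEP20 libraries (log2 fold change 0.68, standard error 0.102, adjusted p = 0.00124). All 3 had separate groups. RFX3, which binds the X-box, rose from 2.37 ± 0.356 to 4.15 ± 0.786 TPM (SD, n = 3 each, limma adjusted p = 0.0164). MCIDAS, an upstream activator of multiciliogenesis, was at 2.26 ± 0.575 and 2.12 ± 0.866 TPM (SD, n = 3 each), and GMNC was at 0 in all libraries.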

How the data were processed

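RNA-seq libraries of 3 siCTR and 3 siCEP20 samples of A549 cells were analysed. Per the labels' processing notes, the authors used fastp 0.20.1, HISAT2 2.1.0, the hg38 genome and StringTie 2.0, and they deposited TPM for each Ensembl gene. The annotation release is not given in the sources used here. The labels and the study's methods differ in medium, RNA kit and input. No depth can be read from TPM, and the spread over 3 samples a group sets the precision. Genes were named with GENCODE release 44, which held 60370 of the 60624 IDs.

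For genes averaging at least 1 TPM, log2(TPM + 1) was fitted in limma 3.58.1 under R 4.3.3 (trended eBayes) on the unscaled values, with Benjamini-Hochberg adjustment over all tested genes. The study's thresholds on fold change and adjusted p set the calls. Members below the filter were compared by two-sided exact permutation tests on the difference of group means, in Python 3.11.15 with numpy 2.4.6. The step was tested on simulated data. The members, lists and motifs were chosen with earlier results of these data known. By the rule for named genes, full statistics were given for CEP20, called members and the most abundant tested member of each role, other members by value, and the 3 smallest adjusted p-values of each other list. The fit was repeated with a pseudocount of 0.1, with all genes or with those averaging at least 5 TPM, after quantile normalization or median-of-ratios scaling, with untrended eBayes, with a replicate block, with a length and GC correction (loess, span 0.5), at a fold change of 2, with each library left out, and over the members without overlaps or outside the heatmap. A filter on both group means was added after seeing the data.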

Additional observations from a re-analysis of the deposited data

How the results depend on the processing

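The median change of the members was positive under each alternative named here, and 0 members were called lower under them. The median log2 fold change of the tested members was 0.62 with a pseudocount of 0.1, 0.36 without a filter (59 members), 0.36 with median-of-ratios scaling or quantile normalization and 0.34 after the length and GC correction, and it was 0.38 without the members of the heatmap. With each library left out it ran from 0.46 to 0.53, with 13 to 15 members called higher and 19 to 21 higher at the adjusted p. In the same fits 9.28% (without siCTR replicate 1) to 12.8% (without siCTR replicate 3) of all tested genes were called higher. Called higher were 7 with a mean of at least 5 TPM (12 at the adjusted p), 7 without the heatmap members (13 at the adjusted p), 9 without members that overlap an expressed gene (12 at the adjusted p), and 6 with a fold change of at least 2. Of all tested genes, 11.1% were called higher with a mean of at least 5 TPM and 1.77% with a fold change of at least 2. The share of all genes higher at the adjusted p was not computed for the leave-out fits or for the 5 TPM filter. At the adjusted p, 1 member was lower with median-of-ratios scaling and with quantile normalization (CFAP410, -0.40 and -0.43), and 1 after the length and GC correction (CFAP298, -0.33). The cause was not tested. Over all tested genes, quantile normalization gave 923 higher and 1016 lower calls and the length and GC correction 902 and 884. Members called higher were 12 and 11, where 6.25% and 6.1% of all tested genes were.

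A fold change of 2 left 6 of the 15 called members. Apart from that threshold, 11 were called under all alternatives planned for single genes that tested them, and 6 of these also at a fold change of 2. The other 4 were CCDC40 and DRC3, lost without a filter and under all 3 rescalings, GAS8, lost under all 3 rescalings, and RSPH3, lost after the length and GC correction. For DRC3, GAS8 and CCDC40 leaving out a library also ended the call. CFAP20 turned to -0.0601 with median-of-ratios scaling, and DNAH14 ran from -0.304 to 0.0655 with each library left out. With the replicate number as a block, 15 members were called higher (against 11.2% of all tested genes), 21 were higher at the adjusted p and the median stayed at 0.48. JHY passed the adjusted p in this paired fit (0.0439) and ODAD4 missed it (0.0756), and no call on the members changed. Deviations of same-numbered samples had correlations of 0.157, -0.061 and -0.062, and not every sample correlated best with its own number, so the numbers were not taken as pairs. Depth, which is unknown, limits what the members under 1 TPM can show.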

Other observations

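Beyond the genes described above, further axoneme and motility genes that are not members also differed, and they are given as values chosen after they were seen. MNS1, a doublet inner protein, rose from 1.498 ± 0.0987 to 4.14 ± 0.211 TPM (SD, n = 3 each, limma log2 fold change 1.04, adjusted p = 0.00054). DNAAF8, a dynein assembly factor, rose from 2.02 ± 0.0779 to 5.27 ± 1.06 TPM (log2 fold change 1.04, adjusted p = 0.00103). AK7, an adenylate kinase of motile cilia, rose from 4.39 ± 0.391 to 7.26 ± 0.431 TPM (log2 fold change 0.62, adjusted p = 0.00267). CFAP206, a protein at the base of a radial spoke, rose from 1.29 ± 0.126 to 2.84 ± 0.397 TPM (log2 fold change 0.74, adjusted p = 0.00568).

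The 3 genes of that list that were lower at the adjusted p were DYNLL1, DYNLT1 and PIH1D1. Other dynein light chains of the list were higher, DYNLL2 (log2 fold change 0.41, limma adjusted p = 0.00283) and DYNLRB1 (0.36, adjusted p = 0.00854). DYNLT1, a light chain of cytoplasmic dynein, fell from 83.5 ± 5.70 to 59.03 ± 5.93 TPM (log2 fold change -0.50, adjusted p = 0.00256). PIH1D1, a subunit of the R2TP chaperone complex, fell from 156 ± 10.3 to 131 ± 8.27 TPM (log2 fold change -0.24, adjusted p = 0.0244). Neither passed the fold change threshold.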
